A study of Homo sapiens with 2 samples.

Results

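The genes described here are 10 human genes that move copper through the cell or carry cisplatin across its membrane. They were taken by symbol from the 58302 genes counted, and all 10 matched exactly 1 gene identifier. They comprise the copper importers SLC31A1 and SLC31A2, the chaperones ATOX1, CCS and COX17, the exporters ATP7A and ATP7B, the regulator COMMD1, and the organic cation carriers SLC22A2 (OCT2) and SLC47A1 (MATE1). RNA was sequenced from HK-2 cells, an immortalised line of human kidney proximal tubule at passage 7 to 11, grown in 10% fetal bovine serum. The library labelled Ad-Bmal1 came from cells infected for 24 h with an adenovirus carrying the coding sequence of the clock transcription factor Bmal1. The library labelled Ad-GFP came from cells infected for 24 h with an adenovirus carrying green fluorescent protein. The cell line field of the labels reads human kidney 3 for Ad-Bmal1 and human kidney 2 for Ad-GFP. Each group was a single library and none went without virus, so the differences below describe these 2 libraries, have no replicate check and carry no p-value. No library was labelled as treated with cisplatin, although the series title concerns cisplatin injury of the kidney.

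Copper enters the cell as the reduced ion, mainly through the trimeric channel encoded by SLC31A1, and is kept bound to carriers in the cytosol. ATOX1 passes it to the ATPases ATP7A and ATP7B, which load secreted copper enzymes and expel excess copper. CCS delivers it to the superoxide dismutase SOD1, and COX17 starts its route to cytochrome c oxidase in mitochondria. COMMD1 binds ATP7B and belongs to a complex that recycles membrane proteins from endosomes. Cisplatin has been reported to share parts of this route, and in the kidney OCT2 brings it into the tubule cell from the blood side while MATE1 exports organic cations into the urine.

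The libraries held 20051735 counts (Ad-Bmal1) and 20032652 counts (Ad-GFP), so that 1 CPM (counts per 1000000, after TMM scaling) was worth 19.8 and 20.3 counts. BMAL1 itself had 133 counts in the library labelled Ad-Bmal1 and 204 in the library labelled Ad-GFP, a ratio of 0.667 with a 95% counting interval of 0.532 to 0.834. BMAL1 is thus lower where its vector was labelled, and the directions given below follow the labels and carry that limit. If the labels of the 2 libraries were exchanged, each of these directions would turn round. The labels do not give the species of the Bmal1 insert, and whether transcripts of the vector were counted under BMAL1 was not tested. Of 14 proximal tubule markers 3 reached 1 CPM in at least 1 library, and LRP2, SLC5A1, SLC22A6, SLC22A8 and FBP1 had no count in either. The summed level of that list was 256 CPM in the library labelled Ad-Bmal1 and 242 CPM in the library labelled Ad-GFP, almost all of it GGT1. In that list PDZK1, a scaffold of the brush border, was lower, with 148 counts in the library labelled Ad-Bmal1 and 344 in the library labelled Ad-GFP (ratio 0.440, 0.361 to 0.535). Of 5 epithelial markers KRT8, KRT18, KRT19 and EPCAM were measured, with a list sum of 1881 and 2083 CPM in the libraries labelled Ad-Bmal1 and Ad-GFP. CDH1, also in that list, had 4 and 1 counts in the same order and stayed under 1 CPM in both. Blood cell markers summed to 0.252 and 0.345 CPM and markers of endothelium, podocyte and distal nephron to 0.454 and 0.592 CPM in that order, with PTPRC, VWF and UMOD at 0 in both. Hepatocyte markers summed to 265 and 297 CPM in that order, nearly all of it SERPINA1, and none of the 6 was at 0 in both libraries. ALB was higher, at 8.33 CPM in the library labelled Ad-Bmal1 and 0.444 in the library labelled Ad-GFP (ratio 18.8, 9.64 to 41.8). HP had 40 and 2 counts in the same order (20.5, 5.31 to 175), the highest ratio of all measured genes. Under 1 CPM in both libraries, APOA1 had 15 and 0 counts, TTR 9 and 0, and CYP3A4 1 and 5. Whether any of these has a part in the results below was not tested.

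Because BMAL1 and CLOCK bind E-box elements and the metal sensor MTF1 binds metal response elements, the promoters of the members were read for both. RefSeq windows on GRCh38.p14, from 250 bases before to 50 bases after an annotated start, existed for 8 of the 10 genes in 13 windows. The E-box was searched as CACGTG and the metal response element as TGCACNC or TGCGCNC, on both strands. An E-box was present for 1 of the 8 genes, ATP7A, and in 7.26% of all 35116 windows of this length or 8.77% of genes. A metal response element was present for 6 of the 8, and in 29.6% of all windows or 33.4% of genes. Where such an element is nearly palindromic its matches on the 2 strands overlap by all but 1 base. Shown here are the promoter windows at 2 starts of COMMD1, the gene with the largest difference, that of ATP7A, which holds the E-box, and that of ATOX1, an evenly expressed gene with a metal response element. All are 5′ to 3′ on the gene's strand with the matches in capitals.
COMMD1 upstream start (chr2:61888475-61888774, plus strand): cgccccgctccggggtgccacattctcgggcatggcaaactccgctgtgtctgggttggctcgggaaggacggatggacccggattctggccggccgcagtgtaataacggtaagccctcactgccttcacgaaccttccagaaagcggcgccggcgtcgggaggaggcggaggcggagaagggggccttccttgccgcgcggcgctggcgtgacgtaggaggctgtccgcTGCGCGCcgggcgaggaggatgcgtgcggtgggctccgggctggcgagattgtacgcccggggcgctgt
COMMD1 downstream start (chr2:61905424-61905723, plus strand): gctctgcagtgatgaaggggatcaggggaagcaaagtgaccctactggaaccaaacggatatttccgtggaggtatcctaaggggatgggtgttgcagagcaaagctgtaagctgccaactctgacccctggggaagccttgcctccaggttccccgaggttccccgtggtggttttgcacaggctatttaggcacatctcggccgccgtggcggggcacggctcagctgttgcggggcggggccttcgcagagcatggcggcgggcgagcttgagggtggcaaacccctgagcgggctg
ATP7A (chrX:77910443-77910742, plus strand): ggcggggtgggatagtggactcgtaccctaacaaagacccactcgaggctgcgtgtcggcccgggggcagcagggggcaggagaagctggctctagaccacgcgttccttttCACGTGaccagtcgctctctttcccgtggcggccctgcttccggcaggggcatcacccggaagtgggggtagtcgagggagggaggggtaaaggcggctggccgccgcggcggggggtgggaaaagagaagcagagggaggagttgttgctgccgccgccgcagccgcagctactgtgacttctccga
ATOX1 (chr5:151758582-151758881, minus strand): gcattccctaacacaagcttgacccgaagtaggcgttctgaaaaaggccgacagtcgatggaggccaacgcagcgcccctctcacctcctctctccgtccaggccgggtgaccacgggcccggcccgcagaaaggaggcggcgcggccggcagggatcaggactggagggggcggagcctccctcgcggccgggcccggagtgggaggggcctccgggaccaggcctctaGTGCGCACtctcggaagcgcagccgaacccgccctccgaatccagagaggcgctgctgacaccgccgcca

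With the annotated start as position 0, the E-box of ATP7A lay from -138 to -133. The metal response element of the upstream COMMD1 start lay from -19 to -13, and those of ATOX1 from -20 to -14 and from -19 to -13. The window at the downstream COMMD1 start held neither element. A further window of COMMD1, not shown, lies upstream of both, with its start at 61888391 against 61888725 for the upstream start shown. It held a metal response element from -62 to -56. None of the 3 COMMD1 windows held CACGTG. A GC box (GGGCGG on either strand), the letters that SP1 binds, was present for 6 of the 8 genes, and in 45.0% of all windows or 48.3% of genes. SLC31A1 had neither of the other elements and carried 3 GC boxes. CCS, COX17, ATP7B and SLC22A2 each held a metal response element in at least 1 window. These are matches of letters and were tested neither for binding nor for enrichment. The 13 windows of the members ran from 45.7% to 71% GC, and no background at matched GC was counted.

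Most of the measured copper handling genes were at nearly the same level in both libraries, and COMMD1 differed. Of the 10 genes, 6 reached 1 CPM in at least 1 library, and each of these did so in both. By the size rule used here, a difference of at least 2-fold with a 95% counting interval that excludes 1, 1 of the 6 was lower in the library labelled Ad-Bmal1, namely COMMD1, and 0 were higher. Of all 13231 measured genes 2.86% met the rule, 1.74% being lower and 1.13% higher. At 1.5-fold in place of 2-fold the members' counts were again 1 lower and 0 higher, beside 4.9% and 4.41% of all measured genes. The intervals of SLC31A1 and COX17 lay above 1 and that of COMMD1 below it, while 23.8% of all measured genes had an interval above 1 and 21.6% below, 45.4% in all. An interval that excludes 1 was thus common at this depth and covers counting error only. The median log2 ratio of the 6 measured members was 0.06, and that of all measured genes was 0.00315. Without COMMD1 the ratios of the measured members ran from 0.995 to 1.14. In RNA from a whole culture, fewer cells that express a gene and less of its RNA per cell cannot be told apart.

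**Figure D1:**
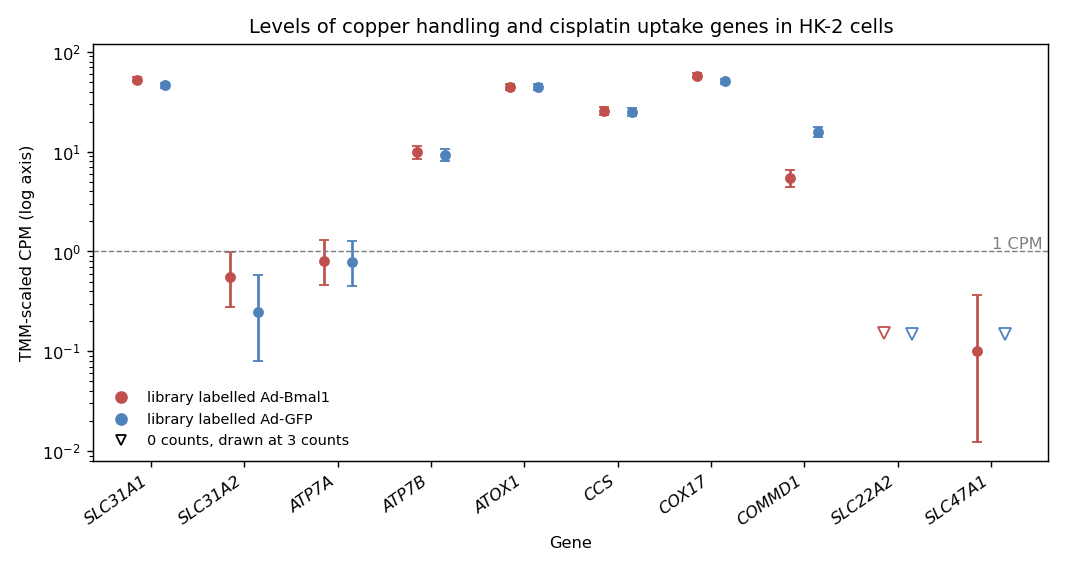
TMM-scaled CPM of the 10 genes on a log axis, with the library labelled Ad-Bmal1 left of the library labelled Ad-GFP and exact 95% Poisson intervals for counting error as bars. Open triangles are genes with 0 counts, drawn at the level of 3 counts, and the dashed line is 1 CPM. Among measured genes COMMD1 shows the widest gap, at 5.40 and 15.8 CPM.

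Among the importers, SLC31A1 (ENSG00000136868, chromosome 9, 113221562 to 113264492), which encodes the high-affinity copper channel CTR1, had 1046 counts in the library labelled Ad-Bmal1 and 938 in the library labelled Ad-GFP. These are 52.8 and 46.3 CPM, a ratio of 1.14 (interval 1.04 to 1.25). The ratio was 1.10 (1.00 to 1.20) once the trend of the ratio on transcript length was removed. SLC31A2 (ENSG00000136867, chromosome 9, 113150942 to 113164137), which encodes the relative CTR2, found mainly on internal membranes, had 11 counts in the library labelled Ad-Bmal1 and 5 in the library labelled Ad-GFP. Its ratio of 2.25 has an interval of 0.721 to 8.26, so a difference was not detectable with so few counts. SLC31A2 also shares 1579 of its 2504 exonic bases with FKBP15 on the opposite strand. For FKBP15 the counts were 609 (Ad-Bmal1) and 661 (Ad-GFP), and without a stated strand setting reads of the pair cannot be told apart.

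The chaperones differed little between the libraries. ATOX1 (ENSG00000177556, chromosome 5, 151742316 to 151772532), the carrier that feeds the export ATPases, had 878 counts in the library labelled Ad-Bmal1 and 903 in the library labelled Ad-GFP. Its ratio of 0.995 has an interval of 0.906 to 1.09, so counting error leaves room for a small difference either way. CCS (ENSG00000173992, chromosome 11, 66592821 to 66606019), the chaperone of SOD1, had 510 counts in the library labelled Ad-Bmal1 and 506 in the library labelled Ad-GFP, a ratio of 1.03 (0.910 to 1.17). COX17 (ENSG00000138495, chromosome 3, 119654513 to 119677454), which supplies copper for cytochrome c oxidase, had 1143 counts in the library labelled Ad-Bmal1 and 1027 in the library labelled Ad-GFP. Its ratio of 1.14 (1.05 to 1.24) was close to that of SLC31A1. With the length trend removed the ratio of COX17 was 1.20 (1.10 to 1.30), against 1.10 (1.00 to 1.20) for SLC31A1. That of CCS was then 1.09 (0.964 to 1.24). Annotated exons overlap here as well. CCS shares 10.6% of its exonic bases with CCDC87 (5 and 4 counts in the libraries labelled Ad-Bmal1 and Ad-GFP) and COX17 17.6% with POPDC2 (7 and 3). ATOX1 shares 2.48% with the start of G3BP1, which had 2041 and 2470 counts in the same order.

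The exporters were lower than the chaperones per length and did not differ beyond counting error. ATP7B (ENSG00000123191, chromosome 13, 51930436 to 52012125), the ATPase mutated in Wilson disease, had 195 counts in the library labelled Ad-Bmal1 and 189 in the library labelled Ad-GFP, a ratio of 1.06 (0.860 to 1.30). ATP7A (ENSG00000165240, X chromosome, 77910656 to 78050395), the ATPase mutated in Menkes disease, had 16 counts in each library. Its ratio of 1.02 spans 0.479 to 2.19, and it stayed under 1 CPM in both libraries. A difference of about 2-fold either way in ATP7A, the gene with the E-box shown above, was therefore not detectable. With the length trend removed the ratios of ATP7A and ATP7B were 0.900 and 0.963, on the other side of 1. ATP7A shares 97 of its 10920 exonic bases with an annotated transcript of PGK1, a highly expressed glycolytic gene with 60204 counts (Ad-Bmal1) and 68048 (Ad-GFP).

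COMMD1 (ENSG00000173163, chromosome 2, 61888724 to 62147247) had 107 counts in the library labelled Ad-Bmal1 and 321 in the library labelled Ad-GFP. These are 5.40 CPM (exact Poisson interval 4.43 to 6.53) and 15.8 CPM (14.1 to 17.7), and the intervals do not overlap. The ratio was 0.341 (0.271 to 0.426), or -1.55 on the log2 scale. Of 13231 measured genes 50 had a lower ratio, and 32 differed by more than the same fold in the other direction. Among the 7991 genes with at least the 428 counts that COMMD1 had in all, 3 had a lower ratio and 1 differed by more than this fold in the other direction. The ratio lay between 0.333 and 0.363 under the other scalings and with the length trend removed, and no replicate shows how far it would vary between cultures.

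**Figure D2:**
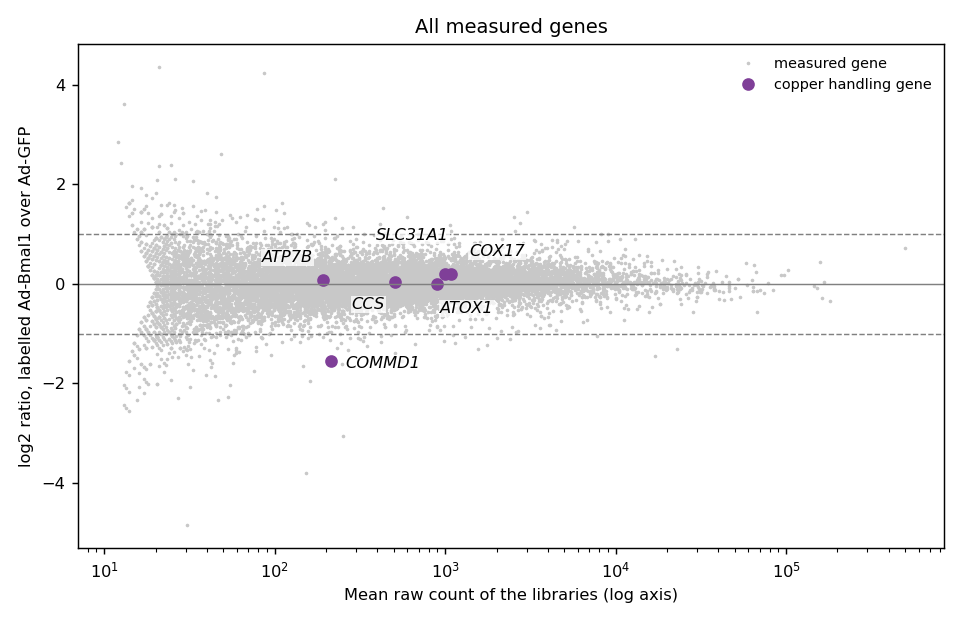
Log2 ratio, Ad-Bmal1 over Ad-GFP, against the mean raw count on a log axis, for the 13231 measured genes in grey and the 6 measured copper handling genes in purple. Dashed lines mark 2-fold. COMMD1 lies at -1.55, and the other 5 lie between -0.01 and 0.19.

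COMMD1 had a lower ratio than every other member of its gene family. The 9 other COMMD genes, which encode subunits of the same endosomal ring, had ratios from 0.663 to 1.15. Of these 0 met the size rule, beside 2.86% of all measured genes. The lowest was COMMD3, with 46 counts in the library labelled Ad-Bmal1 and 71 in the library labelled Ad-GFP (ratio 0.663, 0.447 to 0.974). The lower bound of every one of the 9 lay above the upper bound of COMMD1 at 0.426. COMMD2 had a ratio of 0.843 (0.746 to 0.953), COMMD4 0.884 (0.834 to 0.938) and COMMD9 0.873 (0.784 to 0.972), with intervals below 1. COMMD8 was at 1.15 (1.01 to 1.32), above 1. COMMD5 (1.07), COMMD6 (0.901), COMMD7 (0.949) and COMMD10 (0.867) had intervals that included 1. Summed over the 9 there were 6578 counts in the library labelled Ad-Bmal1 and 7222 in the library labelled Ad-GFP, a ratio of 0.932 (0.901 to 0.964). COMMD1 thus made up 1.60% of all COMMD counts in the library labelled Ad-Bmal1 (exact Clopper-Pearson interval 1.31% to 1.93%) and 4.26% in the library labelled Ad-GFP (3.81% to 4.74%). With 1 library per group the difference between COMMD1 and the family was not tested beyond these counting intervals.

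**Figure D3:**
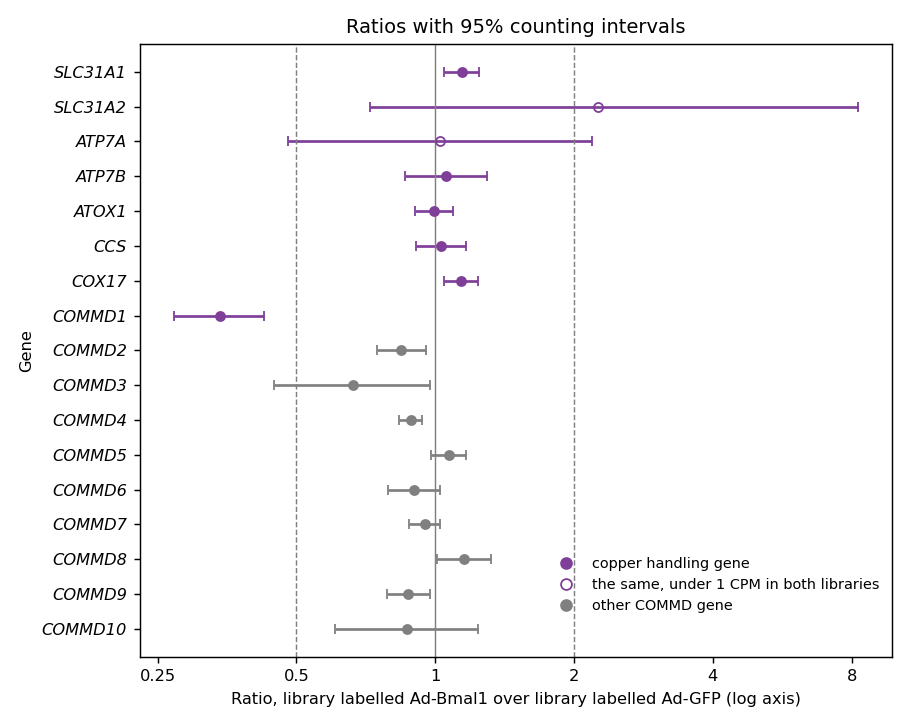
Ratio, Ad-Bmal1 over Ad-GFP, on a log axis with 95% counting intervals, for the 8 copper handling genes with a ratio and the 9 other COMMD genes. Open circles are under 1 CPM in both libraries, and dashed lines mark 2-fold. COMMD1 at 0.341 lies left of all others, and the bars of SLC31A2 and ATP7A, which have few counts, are the widest.

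The 2 abundant genes nearest to COMMD1 had ratios of 0.896 and 0.985, against 0.341 for COMMD1 itself, in a set of neighbours chosen after its value was seen. CCT4, a chaperonin subunit gene, starts head to head with the upstream COMMD1 start at 61888725. The downstream COMMD1 start lies at 61905674, and which start was used was not tested. CCT4 shares 81 of the 2392 exonic bases of COMMD1, on the opposite strand. It had 6653 counts in the library labelled Ad-Bmal1 and 7596 in the library labelled Ad-GFP (ratio 0.896, 0.867 to 0.926). B3GNT2, which lies 48.9 kb beyond the end of COMMD1, had 463 and 481 counts in the same order (0.985, 0.865 to 1.12). FAM161A, at -34.6 kb from the start of COMMD1, had 31 and 47 counts (0.675, 0.414 to 1.08). TMEM17, 353 kb beyond the end of COMMD1, had 27 and 40 counts (0.691, 0.408 to 1.15). Both intervals overlap that of COMMD1. Of the 8 nearest measured genes, 4 on each side, USP34 alone met the size rule and was higher. It had 47 counts in the library labelled Ad-Bmal1 and 23 in the library labelled Ad-GFP. Of all measured genes 2.86% met the rule. The other genes that overlap COMMD1 in the annotation, among them the pseudogene RPSAP26 with 741 shared exonic bases, had 0 counts in both libraries.

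**Figure D4:**
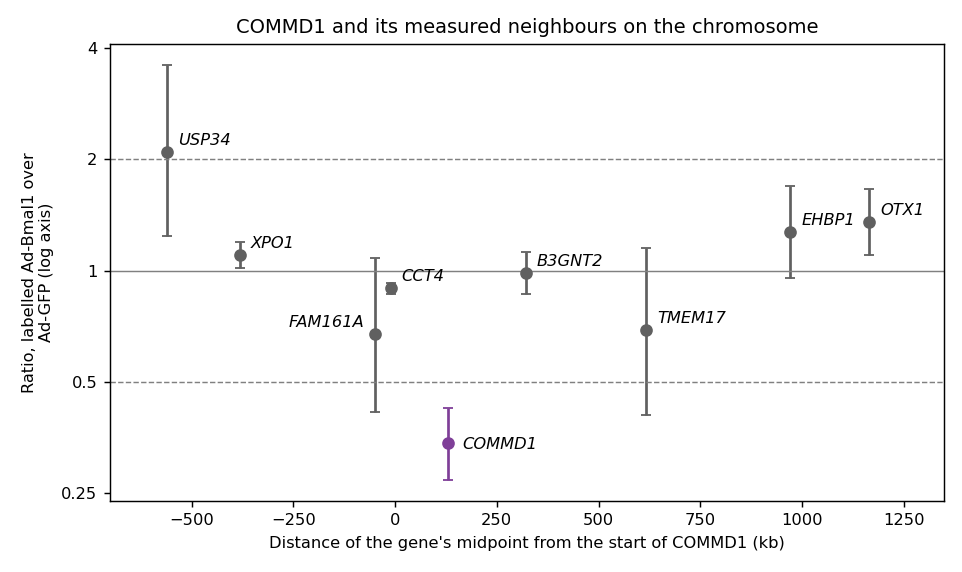
Ratio, Ad-Bmal1 over Ad-GFP, on a log axis with 95% counting intervals, for COMMD1 and the 4 nearest measured genes on each side, against the distance of each gene's midpoint from the start of COMMD1 in kb. Dashed lines mark 2-fold. COMMD1 at 0.341 is the lowest of the 9 points, with CCT4 at 0.896 and B3GNT2 at 0.985 beside it.

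The kidney carriers that move cisplatin were at or near the limit of the counts. SLC22A2 (ENSG00000112499, chromosome 6, 160171061 to 160277638), the uptake carrier OCT2, had 0 counts in both libraries. A count of 0 allows a level of up to 0.151 CPM in the library labelled Ad-Bmal1 and 0.148 in the library labelled Ad-GFP, taking 3 counts as the floor. The upper bounds of the exact 95% Poisson intervals drawn for the other genes would be 0.186 CPM (Ad-Bmal1) and 0.182 CPM (Ad-GFP). SLC47A1 (ENSG00000142494, chromosome 17, 19495385 to 19579034), the extruder MATE1, had 2 counts in the library labelled Ad-Bmal1 and 0 in the library labelled Ad-GFP. Both values are under the floor, so no ratio is given for either carrier.

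Among 7 other organic cation carriers 3 were measured, and 0 met the size rule, beside 2.86% of all measured genes. The cation carrier SLC22A3 (OCT3) had 3 counts in the library labelled Ad-Bmal1 and 6 in the library labelled Ad-GFP. The extruder SLC47A2 (MATE2) had 0 counts in both. The carnitine carrier SLC22A5 had 142 counts in the library labelled Ad-Bmal1 and 85 in the library labelled Ad-GFP, and its ratio of 1.71 had an interval of 1.30 to 2.26. The monoamine carrier SLC29A4, the most abundant of them by count, had 486 and 444 counts (1.12, 0.983 to 1.28), and SLC22A4 60 and 59 (1.04, 0.714 to 1.52).

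The members ranked in nearly the same order in both libraries when the level was taken per kilobase of the principal transcript. ATOX1 had 90.8 CPM per kb in the library labelled Ad-Bmal1 and 91.3 in the library labelled Ad-GFP, and COX17 84.3 and 74.1 CPM per kb. The counting intervals of these neighbours overlapped in the library labelled Ad-Bmal1 and were apart in the library labelled Ad-GFP. CCS followed at 18.0 CPM per kb in the library labelled Ad-Bmal1 and 17.5 in the library labelled Ad-GFP. COMMD1 had rank 5 in the library labelled Ad-Bmal1 at 5.93 CPM per kb, below SLC31A1 at 11.1. In the library labelled Ad-GFP it had rank 4 at 17.4 CPM per kb, above SLC31A1 at 9.75 and level with CCS within counting error. ATP7B was at 1.48 CPM per kb in the library labelled Ad-Bmal1 and 1.40 in the library labelled Ad-GFP. SLC31A2 and ATP7A were under 0.4 CPM per kb in both libraries, and their intervals were apart in the library labelled Ad-Bmal1 and overlapped in the library labelled Ad-GFP. The place of ATOX1 depends on the transcript, because with its longest coding transcript of 4341 bases in place of 488 it had 10.2 CPM per kb in the library labelled Ad-Bmal1 and 10.3 in the library labelled Ad-GFP.

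Related genes were described from 9 lists with 114 genes, of which 92 were measured and 0 met the size rule in either direction. Of all measured genes 2.86% met it. The median log2 ratio of the 92 was -0.07, beside 0.00315 over all measured genes. Of the 92, 17 had intervals above 1 and 29 below, beside 23.8% and 21.6% of all measured genes. Those shares also stand beside the interval counts of the single lists below. Partners of COMMD1 in the endosomal recycling complexes (CCDC22, CCDC93, the VPS35L retriever and the WASH subunits) were listed with the COMMD genes. Of that list 21 of 21 members were measured, with a median of -0.09, 2 intervals above 1 and 7 below. VPS29, shared by retriever and retromer, had 1312 counts in the library labelled Ad-Bmal1 and 1428 in the library labelled Ad-GFP (ratio 0.940, 0.872 to 1.01). CCDC22, which holds the COMMD ring in its complex, had 841 and 991 counts in the same order (0.868, 0.791 to 0.953).

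Copper delivery within mitochondria was even. Of 11 genes 10 were measured, with ratios from 0.862 to 1.08, a median of -0.01 and 1 interval below 1. The mitochondrial phosphate and copper carrier SLC25A3 had 12534 counts in the library labelled Ad-Bmal1 and 12613 in the library labelled Ad-GFP (ratio 1.02, 0.992 to 1.04). CMC2, a COX17 relative of the intermembrane space, had 983 and 951 counts in the same order (1.06, 0.966 to 1.16). SCO1, which takes copper from COX17, had 953 and 972 (1.00, 0.916 to 1.10). Among the copper enzymes 12 of 19 were measured, with a median of 0.05, 4 intervals above 1 and 4 below. The cytochrome c oxidase subunit MT-CO1, the end point of the COX17 route, had 97796 counts in the library labelled Ad-Bmal1 and 88850 in the library labelled Ad-GFP (1.13, 1.12 to 1.14). MT-CO2, the subunit with the paired copper site, was at 1.07 (1.05 to 1.08). SOD1, the client of CCS, had 5013 counts in the library labelled Ad-Bmal1 and 4925 in the library labelled Ad-GFP (1.04, 1.00 to 1.08), a value close to that of CCS.

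Other copper carriers and reductases had 7 of 10 genes measured and a median of -0.08. APP, a copper-binding membrane protein, had 17606 counts in the library labelled Ad-Bmal1 and 16811 in the library labelled Ad-GFP (ratio 1.07, 1.05 to 1.09). CUTA, a gene related to bacterial divalent cation tolerance, had 3408 and 4123 counts in the same order (0.846, 0.808 to 0.885). Metal sensing and storage genes had the lowest median of the 9 lists, -0.33 over 11 of 13 measured genes, with 6 intervals below 1 and 1 above. The list holds the metallothioneins and their regulator, the metal sensor MTF1, which had 353 counts in the library labelled Ad-Bmal1 and 349 in the library labelled Ad-GFP (1.03, 0.890 to 1.20). The zinc exporter SLC30A1, a known target of MTF1, had 360 and 305 counts (1.21, 1.03 to 1.41). Reads may be split among the similar metallothionein genes MT2A and MT1E, the most abundant of the list, at 0.796 (0.785 to 0.807) and 0.701 (0.683 to 0.719).

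Platinum carriers of other families had 12 of 14 genes measured and a median of 0.25, with 5 intervals above 1 and 3 below. The list medians keep the length trend, a log2 ratio of -0.09 at the 911 bases of COMMD1 and 0.13 at the 6638 of ATP7B. The transcript of MT1E has 704 bases and that of ABCC1 6552. Whether length has a part in the order of the lists was not tested. LRRC8A, the obligate subunit of the volume-regulated anion channel that can admit cisplatin, had 2511 counts in the library labelled Ad-Bmal1 and 2849 in the library labelled Ad-GFP (ratio 0.902, 0.854 to 0.952). The efflux pump ABCC1 had 1839 and 1236 counts in the same order (1.52, 1.42 to 1.64). LRRC8D, the subunit that gives the channel its passage for platinum drugs, was at 1.16 (0.986 to 1.37). Genes that conjugate or process cisplatin had 6 of 8 measured and a median of -0.01. The glutathione transferase GSTP1 had 21185 counts in the library labelled Ad-Bmal1 and 24663 in the library labelled Ad-GFP (0.879, 0.863 to 0.895). GGT1, which trims glutathione conjugates, had 4881 and 4473 counts (1.12, 1.07 to 1.16). Lipoylation genes through which copper is toxic had 10 of 11 measured and a median of -0.15, with 1 interval above 1 and 4 below. The most abundant were DLST, at 0.923 (0.885 to 0.962), and PDHA1, at 0.886 (0.839 to 0.936). FDX1, the ferredoxin at the head of that route, had 199 counts in the library labelled Ad-Bmal1 and 229 in the library labelled Ad-GFP (0.889, 0.732 to 1.08).

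**Figure D5:**
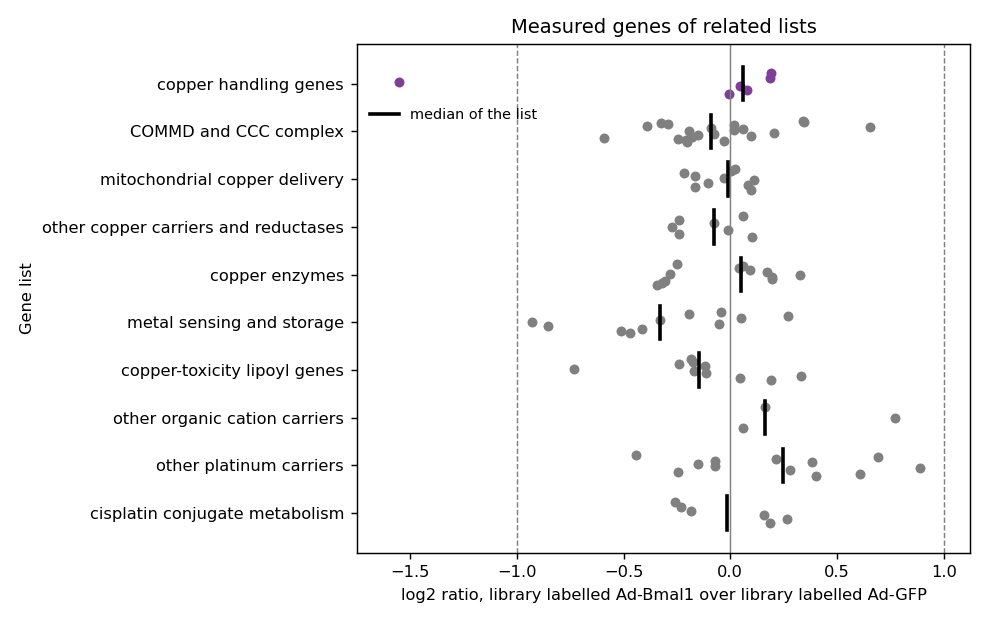
Log2 ratio, Ad-Bmal1 over Ad-GFP, of each measured gene (points) in the copper handling set and 9 related lists, with the median of each list as a bar. Dashed lines mark 2-fold. COMMD1 at -1.55 is the single point beyond 2-fold, and the list medians run from -0.33 for metal sensing and storage to 0.25 for other platinum carriers. The length trend was not removed.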

How the data were processed

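RNA-seq of poly(A) RNA from HK-2 cells gave 2 libraries, 1 per group, grouped by title. The authors deposited a count per Ensembl gene, in whole numbers with no sign of normalisation. HISAT2 and the GRCh38 build (hg38) are listed by the submitters' processing notes. Which program did the counting, with which strand setting and annotation, is not given in the sources used here. The 10 genes, the related lists and the size rule were chosen with earlier results of these data known.

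TMM scaling came from edgeR 4.0.16 (R 4.3.3). Other steps used Python 3.11.15, scipy 1.17.1 and statsmodels 0.14.6. With 1 library per group no quasi-likelihood test was possible. Ratios carry 95% intervals from the exact binomial (Clopper-Pearson) given both counts. A gene was measured at 1 CPM or more in at least 1 library. A fold of 2 or more with an interval that excludes 1 met the size rule. Intervals and the floor of 3 counts cover counting error only, and PCR copies of a molecule are not told apart. Symbols matched 98.7% of the identifiers. Gene spans and lengths are from GENCODE 29 on GRCh38, using the APPRIS principal transcript where there is one. The length trend was a lowess fit with a span of 0.3 over measured genes. The alternatives tried were size factors of DESeq2 1.42.0, total counts, upper-quartile factors, totals that leave out mitochondrial genes and the top 20 by count, the length trend removed, and other minimums and fold sizes. The steps were tested on simulated data with Poisson counting error only, which leaves variation between cultures untested.

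Named are the 10 genes, BMAL1, the COMMD genes, and of each related list any gene that met the size rule or else the 2 most abundant. The genes that overlap a member or lie next to COMMD1, and CCDC22, SLC22A3, SLC22A4, SLC47A2, SOD1, SCO1, MTF1, SLC30A1, LRRC8D and FDX1, were named after their values were seen, as were those in the closing part.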

Additional observations from a re-analysis of the deposited data

How the results depend on the processing

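Each of the 8 member ratios kept within its own counting interval under all 5 other scalings and trend settings, 40 values in all, and COMMD1 met the size rule under each of these. At 4-fold 0 members were lower. With the length trend removed the ratios of ATOX1, ATP7A and ATP7B crossed 1, to 1.03, 0.900 and 0.963, and with total counts that of ATP7A was 0.999. No minimum, 10 CPM, 1.5-fold, 4-fold and an interval wholly beyond 2-fold gave 292, 21, 583, 12 and 23 higher and 382, 38, 648, 20 and 28 lower genes among all genes, against 149 and 230. In the related lists 1.5-fold gave 4 higher and 4 lower genes and no minimum 2 lower, against 0. These settings differ by construction in how many genes they admit. With the longest coding transcript the level of ATOX1 was 10.2 CPM per kb (Ad-Bmal1) and 10.3 (Ad-GFP), and the other members with a count kept theirs. Few or no counts limit SLC31A2, ATP7A, SLC22A2 and SLC47A1, and for SLC31A2 depth and the overlap with FKBP15 cannot be told apart. No paired analysis was possible because each group has 1 library.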

Other observations

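At a size of 1.5-fold with an interval that excludes 1, the library labelled Ad-Bmal1 was above the library labelled Ad-GFP for 4 of the 92 measured genes of the related lists and below it for 4. Of all 13231 measured genes 4.41% were higher and 4.9% lower at that size, so the lists' counts are near the share of all genes. The efflux pump ABCC5 had 1395 counts in the library labelled Ad-Bmal1 and 770 in the library labelled Ad-GFP, a ratio of 1.85 (1.70 to 2.03). LRRC8E, a subunit of the volume-regulated anion channel, had 134 and 85 counts in the same order (1.61, 1.22 to 2.14). The other two were ABCC1 and SLC22A5, described above.

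The lower genes included the metallothioneins MT1X, with 633 counts in the library labelled Ad-Bmal1 and 1232 in the library labelled Ad-GFP (ratio 0.526, 0.477 to 0.579), and MT1G, with 67 and 124 (0.553, 0.404 to 0.750). Both have close relatives among which reads may be split. GCSH, the lipoyl carrier of the glycine cleavage system, had 80 and 136 counts in the same order (0.602, 0.451 to 0.799), and COMMD3 was the fourth. The copper-dependent amine oxidase AOC3, under 1 CPM in both libraries, had 5 counts in the library labelled Ad-Bmal1 and 18 in the library labelled Ad-GFP (0.284, 0.0825 to 0.794). ANPEP, of the cisplatin conjugate list and also under 1 CPM in both, had 7 and 19 counts in the same order (0.377, 0.134 to 0.936). These are the 2 lower genes of the related lists when no minimum is set.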
